A study of Homo sapiens with 9 samples.

Results

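Collagens are the most abundant proteins of connective tissue. Their genes were followed here in blood-forming cells positive for the surface antigen CD38 or CD90. The genes were every row of the deposited count table whose symbol is COL, a number, A and a number, which gave 43 of 21229 genes. They comprised 11 chains of fibrillar collagens, 6 chains of the type IV collagen of basement membranes and 26 chains of other collagens. COL22A1 was not analysed here.

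RNA was measured in haematopoietic cells differentiated from H1, an established human embryonic stem cell line, in 9 libraries that formed 3 groups of 3. The groups were control cells positive for CD38 (an ectoenzyme of maturing blood cells), control cells positive for CD90 (encoded by THY1, a surface antigen of blood stem cells and of mesenchymal cells) and CD90+ cells of the GATA2 overexpression genotype. GATA2 is a transcription factor of blood progenitors. All 9 libraries came from the same line, and the promoter, vector and number of clones behind the overexpression were not given in the sources used here. Nothing in the labels ties the 3 libraries of a group to separate cultures, so p-values measure the spread between these samples, which may be technical.

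A collagen molecule is a triple helix of 3 chains, each built of repeats of glycine and a pair of other residues, of which many are proline or hydroxyproline. Fibrillar chains (types I, II, III, V, XI, XXIV and XXVII) assemble into the fibres of skin, bone, cartilage and vessel walls. Type IV chains form the sheet of the basement membrane under epithelium and around endothelium, while the remaining types decorate fibrils, anchor them or span the plasma membrane. Fibroblasts and other mesenchymal cells are the main source of the fibrillar chains, and blood cells are known for binding collagen more than for making it.

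The repeat can be read in the genes themselves. The stretches below are 1 coding exon of 54 bases from each of the 4 fibrillar genes with the highest levels per kilobase in CD90+ control cells, shown because the fibrillar class carries most of the difference between groups and because the shared repeat decides whether reads can be told apart. They are from GENCODE release 29 on GRCh38, on the coding strand, with every glycine codon in capitals. The exons were exon 8 of 51 of COL1A1 (chr17:50197949-50198002, minus strand), exon 8 of 52 of COL1A2 (chr7:94404693-94404746, plus strand), exon 6 of 51 of COL3A1 (chr2:188988081-188988134, plus strand) and exon 6 of 54 of COL2A1 (chr12:47997871-47997924, minus strand), numbered over coding exons.
COL1A1: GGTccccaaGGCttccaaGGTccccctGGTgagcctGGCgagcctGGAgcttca
COL1A2: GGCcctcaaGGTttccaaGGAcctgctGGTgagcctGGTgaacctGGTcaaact
COL3A1: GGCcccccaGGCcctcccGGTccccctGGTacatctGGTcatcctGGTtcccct
COL2A1: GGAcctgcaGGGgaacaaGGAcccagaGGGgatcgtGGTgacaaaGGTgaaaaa

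Each exon held 6 glycine codons in 18 codons. The COL1A1 and COL1A2 exons were identical at 40 of 54 bases, COL1A1 and COL3A1 at 35, and COL3A1 and COL2A1 at 24. In the 11 fibrillar genes 75.4% to 90% of internal coding exons had a length divisible by 9, and 21 to 33 of them were 54 bases long. In the 6 type IV genes the share was 40% to 59.1%, with 1 to 3 exons of 54 bases. Despite the repeat the transcripts were distinct, since only 6 of 903 pairs of the 43 genes shared any run of 31 bases in their transcripts on the same strand, with 4 to 17 such runs per pair. Those pairs were COL1A1 and COL2A1, COL1A2 and COL2A1, COL24A1 and COL9A1, COL27A1 and COL6A3, COL28A1 and COL8A1, and COL6A5 and COL6A6.

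Sequence before the start sites is shown for the type IV pairs, whose genes lie head to head, and for 3 further members. The RefSeq (GRCh38.p14) promoters used here covered 32 of the 43 genes. Those without one were COL1A1, COL1A2, COL2A1, COL3A1, COL5A2, COL6A1, COL6A5, COL8A1, COL9A3, COL14A1 and COL20A1. The motif shares below therefore leave out the 4 genes that led control CD90+ cells per kilobase. The stretches run from the plus strand and leave out annotated exons. COL4A6 and COL4A5 have 379 bases between their start sites, of which chrX:108439588-108439837 is shown. COL4A4 and COL4A3 have 418 bases between theirs, of which chr2:227164237-227164395 is shown. COL5A1 (chr9:134641553-134641773) and COL6A2 (chr21:46097862-46098096) were both called higher in control CD90+ than in CD38+ cells and lower with overexpression. COL18A1 (chr21:45404915-45405136) was also called higher in control CD90+ cells and was not called with GATA2 overexpression. Capitals mark GGGCGG (the GC box), CCAAT and TATAAA (the TATA box), each on either strand, and the COL4A4 and COL4A3 stretch held none of them.
COL4A6 and COL4A5: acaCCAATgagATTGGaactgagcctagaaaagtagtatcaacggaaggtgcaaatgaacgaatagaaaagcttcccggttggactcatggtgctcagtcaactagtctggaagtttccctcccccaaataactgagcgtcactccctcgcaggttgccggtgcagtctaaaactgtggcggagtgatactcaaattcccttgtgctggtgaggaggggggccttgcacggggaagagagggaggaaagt
COL4A4 and COL4A3: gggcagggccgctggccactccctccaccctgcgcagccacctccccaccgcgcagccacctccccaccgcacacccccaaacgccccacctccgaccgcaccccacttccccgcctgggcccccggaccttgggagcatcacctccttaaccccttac
COL5A1: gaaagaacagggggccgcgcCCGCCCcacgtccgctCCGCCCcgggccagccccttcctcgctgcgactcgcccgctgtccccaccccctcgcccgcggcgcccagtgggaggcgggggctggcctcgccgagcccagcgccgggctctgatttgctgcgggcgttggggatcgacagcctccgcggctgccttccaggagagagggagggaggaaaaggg
COL6A2: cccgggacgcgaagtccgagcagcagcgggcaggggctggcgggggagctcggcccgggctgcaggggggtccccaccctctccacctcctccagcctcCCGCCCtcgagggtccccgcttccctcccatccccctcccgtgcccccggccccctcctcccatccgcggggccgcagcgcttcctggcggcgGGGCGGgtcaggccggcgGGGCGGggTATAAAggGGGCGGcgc
COL18A1: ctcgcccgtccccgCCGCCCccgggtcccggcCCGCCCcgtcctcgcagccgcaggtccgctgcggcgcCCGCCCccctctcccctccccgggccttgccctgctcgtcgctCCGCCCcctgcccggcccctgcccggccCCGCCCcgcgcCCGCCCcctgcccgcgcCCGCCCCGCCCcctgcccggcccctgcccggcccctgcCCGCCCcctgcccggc

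COL4A1 and COL4A2 have 126 bases between their start sites, and annotated exons left no stretch there long enough to show. In the 250 bases before the start site, GGGCGG on either strand stood in 18 of 32 collagen promoters (56.2%), against 42.3% of 27305 promoters. CCAAT stood in 9 (28.1%, against 33.0%) and TATAAA in 5 (15.6%, against 11.1%). AGATAA, a form of the motif bound by GATA factors, stood in 3 (COL17A1, COL19A1 and COL21A1), which is 9.38% against 9.37% of all promoters. None of these 4 motifs contains another. The matches describe letters in a window and no binding was measured.

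Counts assigned to genes totalled 42695005 to 45561088 per CD38+ library, 42577569 to 47261093 per control CD90+ library and 37500192 to 39582736 per GATA2 overexpression library. Levels are given as CPM, counts scaled to a common library size after TMM, a correction for unequal RNA composition. GATA2 was at 87.3 ± 1.93 CPM in control CD90+ cells (mean ± SD, n = 3 libraries here and below), 376 ± 12.8 CPM with overexpression and 569 ± 16.3 CPM in CD38+ cells, and reads from a transgene would be counted with those of the gene itself. THY1 had 0 counts in CD38+ cells and stood at 4.43 ± 0.632 CPM in control CD90+ and 3.06 ± 0.439 CPM in overexpressing cells. CD38 itself stood at 122 ± 2.395 CPM in CD38+, 4.37 ± 0.382 CPM in control CD90+ and 2.23 ± 0.514 CPM in overexpressing cells. The summed level of 8 blood cell markers was 1245 to 1319 CPM in the CD38+ libraries, 891 to 921 CPM in control CD90+ and 1514 to 1518 CPM with overexpression, and none of the 8 was at 0 in a group.

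Collagen RNA was scarce in CD38+ cells, most abundant in control CD90+ cells and intermediate in CD90+ cells with GATA2 overexpression. The 43 genes summed to 143 ± 8.25 CPM in CD38+ cells, 1106 ± 10.4 CPM in control CD90+ cells and 383 ± 6.66 CPM with overexpression, and no library of any group overlapped another group. The fibrillar chains made most of this difference, at 11.03 ± 1.22 CPM, 857 ± 7.28 CPM and 277 ± 4.905 CPM. Type IV chains summed to 14.1 ± 1.13 CPM, 68.1 ± 2.22 CPM and 22.1 ± 1.22 CPM, and the other collagens to 118 ± 5.94 CPM, 181 ± 3.78 CPM and 83.5 ± 2.98 CPM. In bulk samples such as these, fewer cells of a type and less RNA per cell cannot be told apart.

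The makeup of the collagen counts differed between groups as well. Fibrillar chains took 7.71 ± 0.428% of collagen counts in CD38+ cells, 77.5 ± 0.08303% in control CD90+ cells and 72.4 ± 0.0711% with overexpression. The other collagens took 82.4 ± 0.652%, 16.3 ± 0.216% and 21.8 ± 0.398%, and type IV chains 9.85 ± 0.228%, 6.15 ± 0.215% and 5.77 ± 0.415%. Shares of all 3 classes were separate between CD38+ cells and each CD90+ group, and shares of the fibrillar and other classes also between the CD90+ groups (exact two-sided permutation test, p = 0.1, the smallest that 3 against 3 allow, and 0.113 after Benjamini-Hochberg adjustment over 9 tests). The type IV share overlapped between the CD90+ groups (exact permutation p = 0.2). The order of the CD90+ groups rested on the most counted member of each class (COL3A1, COL4A2 and COL9A2), since without these members the fibrillar share was 70.2% in control CD90+ and 70.5% in overexpressing cells and that of the other collagens 24.1% and 23.7%.

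**Figure D1:**
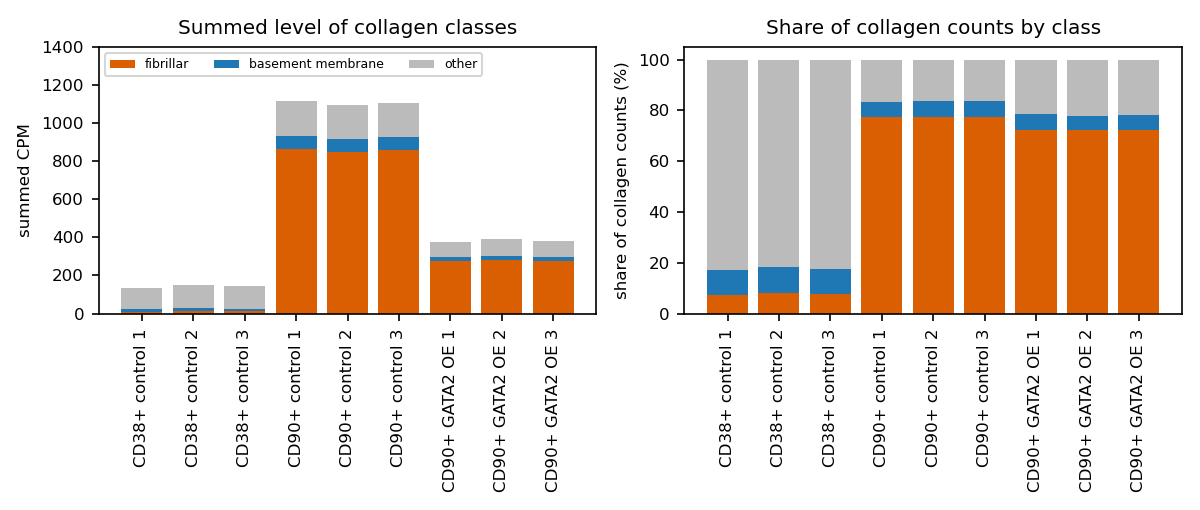
Summed collagen level by class in each of the 9 libraries, as stacked bars in CPM (left) and as percent of the library's collagen counts (right). The fibrillar part fills 77.5% of the bars on average in control CD90+ cells and 7.71% in CD38+ cells.

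On a scale that allows genes to be compared, CPM per kilobase of exonic length, the leading collagens differed between groups. CD38+ cells were led by COL9A2 at 13.2 ± 0.359 CPM per kb and COL23A1 at 7.31 ± 0.999, followed at a distance by COL18A1 (1.63 ± 0.145) and COL4A5 (0.991 ± 0.0494). None of these is fibrillar. Control CD90+ cells were led by COL3A1 at 58.6 ± 0.483 CPM per kb, ahead of COL1A1 (18.3 ± 0.321), COL1A2 (13.2 ± 0.2595) and COL2A1 (10.4 ± 0.163). With GATA2 overexpression COL2A1 came first at 14.9 ± 0.677 CPM per kb, then COL3A1 (11.8 ± 0.0399), COL9A2 (4.06 ± 0.0366) and COL1A1 (3.45 ± 0.1903). Neighbours in each of these orders were separated by more than their SDs.

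**Figure D2:**
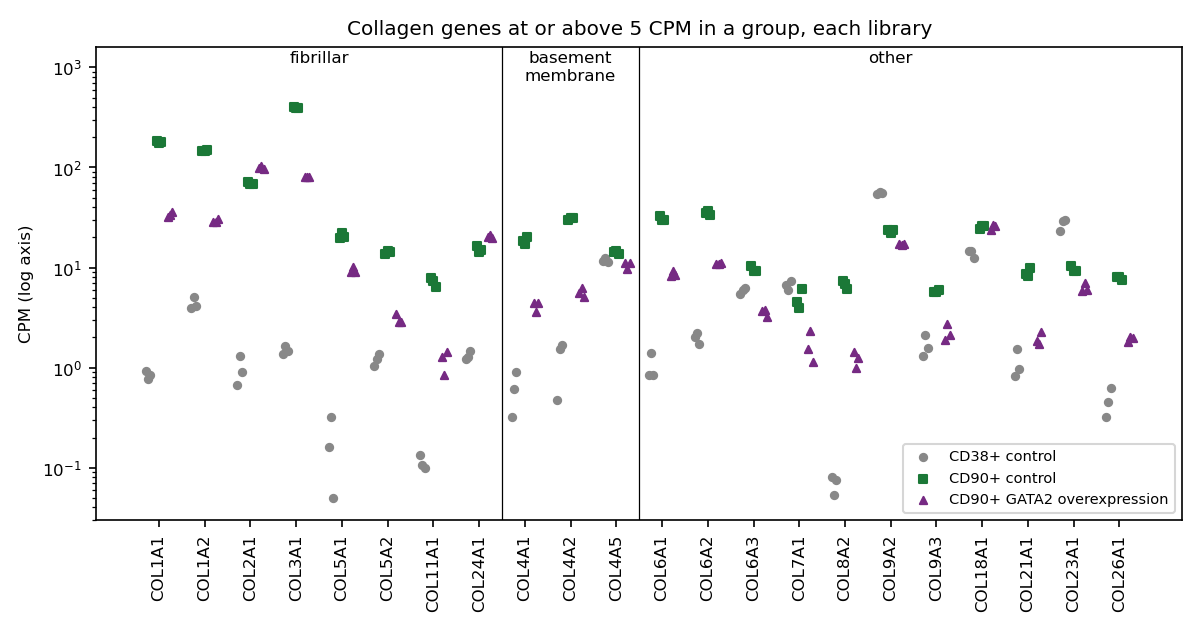
Level in CPM (log axis) of the 22 collagen genes with a mean of at least 5 CPM in a group, 1 point per library, by class. Control CD90+ libraries (squares) are highest for most genes. COL9A2 and COL23A1 are highest in CD38+ libraries (circles), as is the mean of COL7A1, whose CD38+ and control CD90+ libraries overlap. COL2A1 and COL24A1 are highest with GATA2 overexpression (triangles). Values of 0 cannot be drawn on the log axis.

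The first comparison asked how control CD90+ cells differ from control CD38+ cells. Of the 43 genes, 35 passed the filter on low counts, and edgeR's quasi-likelihood test called 31 higher and 3 lower in CD90+ cells at an adjusted p under 0.05. Among all 16232 genes tested, 80.4% were called, 41.1% higher and 39.3% lower, so 51.2% of calls were higher (71.2% when scaled by library size alone). At a change of 2-fold or more, 28 collagen genes were called higher and 2 lower, against 22.6% and 13.6% of all genes. The median log2 fold change of the collagen genes was 4.07 (3.73 with the 5 genes of 0 to 3 counts in CD38+ cells at the bound or ratio that their counts give), against 0.03 over all genes tested. Of the 31, 12 reached the filter's level of 0.234 CPM in the CD90+ group alone. They were admitted through groups where they were high, so the filter favoured their direction. The 22 that reached this level in both groups comprised 19 called higher and 3 called lower.

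The second comparison asked what GATA2 overexpression changed in CD90+ cells, and it shares the control CD90+ libraries with the first. Here 2 collagen genes were called higher (COL2A1 and COL24A1), 31 lower and 2 neither way (COL18A1 and COL8A1), against 77.6% of all genes called, 38.0% higher and 39.6% lower (49.0% of calls higher, and 35.5% when scaled by library size alone). At 2-fold or more, 28 were called lower, against 21.4% of all genes, and none rose by more than the 1.43-fold of COL2A1, where 7.98% of all genes were called at least 2-fold higher. The median log2 fold change was -1.84, and -0.04 over all genes. Of 25 collagen genes that reached the filter's level in both groups, 2 were called higher and 22 lower.

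Set against CD38+ cells, the overexpressing CD90+ cells had 22 collagen genes called higher, 5 called lower (COL16A1, COL23A1, COL6A3, COL7A1 and COL9A2) and 8 called neither way. Over all genes 83.2% were called, 43.3% higher and 39.9% lower. At 2-fold or more, 20 collagen genes were called higher and 4 lower, against 23.0% and 21.2% of all genes. The median log2 fold change was 2.03, and 0.07 over all genes. Of the 22, 13 reached the filter's level in both groups, 5 in 1 group only and 4 in neither, and of the 5 called lower 4 reached it in both. This comparison shares its libraries with the other comparisons.

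**Figure D3:**
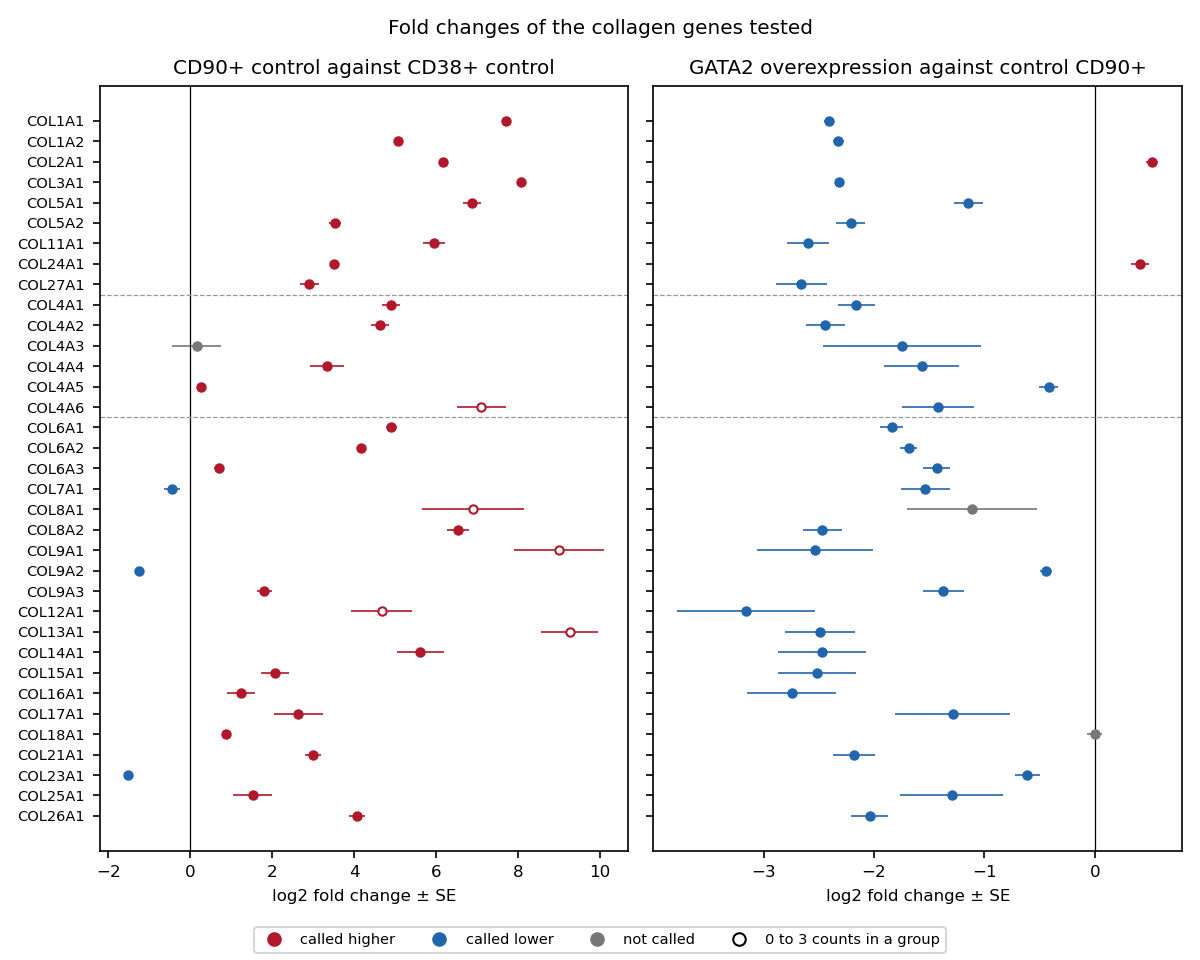
Log2 fold change ± SE of the 35 collagen genes tested, for control CD90+ against CD38+ cells (left) and GATA2 overexpression against control CD90+ cells (right), with fibrillar, basement membrane and other collagens from top to bottom. Red is called higher, blue called lower, grey not called, and open points have 0 to 3 counts in a group. The left panel has 31 genes called higher and the right panel 31 called lower.

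All 9 fibrillar genes tested were called higher in control CD90+ than in CD38+ cells, each by more than 2-fold, and 7 of the 9 were called lower with overexpression. Over all genes, 22.6% were called at least 2-fold higher in the first comparison and 39.6% lower in the second. COL5A1 and COL11A1 reached the filter's level in control CD90+ but not in CD38+ cells. Type III collagen is a homotrimer of reticular fibres, and its gene had the highest level per kilobase in control CD90+ cells. COL3A1 (ENSG00000168542.14, chr2:188974320-189012746, plus strand) was at 1.36, 1.63 and 1.48 CPM in the CD38+ libraries, 403, 397 and 397 CPM in the control CD90+ libraries and 80.1, 80.3 and 79.7 CPM in the GATA2 overexpression libraries. The 3 groups lay far apart, with the spread within a group a small part of the gaps. The log2 fold change was 8.06 ± 0.0445 (SE) for control CD90+ against CD38+ cells (edgeR, adjusted p = 7.22e-24) and -2.32 ± 0.0261 for overexpression against control CD90+ cells (adjusted p = 4.69e-20).

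Type I collagen, the main fibre of bone and tendon, is made of a pair of COL1A1 chains and 1 COL1A2 chain. COL1A1 (ENSG00000108821.13, chr17:50183289-50201632, minus strand) was at 0.931, 0.775 and 0.851 CPM in CD38+ libraries, 183, 177 and 181 CPM in control CD90+ libraries and 32.01, 33.8 and 35.7 CPM with overexpression. Again no groups overlapped, and the log2 fold changes were 7.72 ± 0.0688 (edgeR adjusted p = 1.27e-21) and -2.41 ± 0.0412 (adjusted p = 6.91e-18). COL1A2 (ENSG00000164692.17, chr7:94394561-94431232, plus strand) was at 3.91, 5.05 and 4.16 CPM in CD38+ libraries, 146, 145 and 150.4 CPM in control CD90+ libraries and 28.6, 28.7 and 30.8 CPM with overexpression. Its groups did not overlap either, and its difference from CD38+ cells was smaller than that of COL1A1, with log2 fold changes of 5.07 ± 0.0646 (edgeR adjusted p = 7.97e-20) and -2.32 ± 0.0505 (adjusted p = 1.3e-16).

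The balance of the type I chains therefore differed between groups. The log2 ratio of COL1A1 to COL1A2 per kilobase was -2.17 ± 0.322 in CD38+ cells, 0.48 ± 0.0303 in control CD90+ cells and 0.39 ± 0.0366 with overexpression (SD, n = 3). CD38+ libraries lay below both CD90+ groups, and control CD90+ above overexpression (exact two-sided permutation p = 0.1, the smallest possible, and 0.2 adjusted over 6 ratio tests). With coding length in place of exonic length the ratio was 0.19 in control CD90+ cells and 0.10 with overexpression.

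COL2A1 and COL24A1 were the members that rose with GATA2 overexpression. COL2A1 (ENSG00000139219.18, chr12:47972965-48004554, minus strand), the homotrimeric fibre of cartilage, was at 0.665, 1.31 and 0.901 CPM in CD38+ libraries, 70.9, 68.97 and 69.001 CPM in control CD90+ libraries and 98.5, 105 and 95.8 CPM with overexpression. Each overexpression library exceeded each control CD90+ library, by 1.43-fold in the fit (log2 0.52 ± 0.0544, edgeR adjusted p = 1.69e-07), after a log2 difference of 6.18 ± 0.0968 between control CD90+ and CD38+ cells. COL24A1 (ENSG00000171502.14, chr1:85729233-86156943, minus strand), a minor fibrillar chain of developing bone, was at 1.22, 1.28 and 1.48 CPM, 16.4, 14.4 and 14.98 CPM and 19.97, 21.01 and 19.8 CPM in the same order of groups. The groups did not overlap, and the log2 fold change with overexpression was 0.41 ± 0.0845 (edgeR adjusted p = 0.000321). Scaled by library size alone it was 0.16 (adjusted p = 0.0857), so the call for COL24A1 rested on the scaling, while that for COL2A1 did not.

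The type V chains, which are built into type I and III fibres and set their width, followed COL1A1 and COL3A1 in direction. COL5A1 (ENSG00000130635.15, chr9:134641774-134844843, plus strand) was at 0.1595, 0.321 and 0.0501 CPM in CD38+ libraries, 19.6, 22.2 and 20.4 CPM in control CD90+ libraries and 9.09, 10.01 and 8.997 CPM with overexpression. Its fall with overexpression, 2.21-fold (log2 -1.15 ± 0.134, edgeR adjusted p = 6.59e-07), was the smallest of the 7 fibrillar falls. COL5A2 (ENSG00000204262.12, chr2:189031896-189225312, minus strand), its partner in the type V trimer, was at 1.04, 1.23 and 1.38 CPM, 13.6, 14.7 and 14.3 CPM and 3.41, 2.89 and 2.88 CPM in these groups and fell by 2.21 ± 0.131 on the log2 scale (edgeR adjusted p = 8.33e-11). COL5A2 lies tail to tail with COL3A1 on chromosome 2, with 19149 bases between them. COL11A1, the type XI chain of cartilage, was at 0.133, 0.107 and 0.1001 CPM, 7.797, 7.36 and 6.36 CPM and 1.27, 0.848 and 1.44 CPM. No groups overlapped for these 3 genes, and COL11A1 fell by 2.60 ± 0.192 with overexpression (edgeR adjusted p = 1.57e-09). COL27A1 stayed below 5 CPM, at 0.523 ± 0.0796 CPM, 3.92 ± 0.473 CPM and 0.6199 ± 0.167 CPM, and its overexpression libraries overlapped those of CD38+ cells. COL5A3 and COL11A2 were not tested, with group means of at most 0.327 CPM.

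Of the 6 type IV genes, 5 were called higher in control CD90+ than in CD38+ cells, and all 6 were called lower with overexpression. Over all genes, 41.1% were called higher in the first comparison and 39.6% lower in the second. COL4A4 and COL4A6 reached the filter's level in control CD90+ but not in CD38+ cells, and COL4A3 reached it in no group. The chains work in sets: COL4A1 and COL4A2 form the network found in nearly all basement membranes, COL4A3, COL4A4 and COL4A5 that of the kidney filter, and COL4A5 and COL4A6 that of smooth muscle. COL4A1 (ENSG00000187498.15, chr13:110148963-110307233, minus strand) was at 0.319, 0.615 and 0.901 CPM in CD38+ libraries, 18.5, 16.997 and 20.1 CPM in control CD90+ libraries and 4.42, 3.58 and 4.403 CPM with overexpression. COL4A2 (ENSG00000134871.18, chr13:110305812-110513209, plus strand) was at 0.479, 1.52 and 1.68 CPM, 29.8, 31.3 and 30.99 CPM and 5.55, 6.31 and 5.08 CPM. Between the RefSeq start sites of these genes lie 126 bases, while their GENCODE spans given here overlap. Both genes were highest in control CD90+ cells and lowest in CD38+ cells, and no groups overlapped. Their log2 fold changes with overexpression were -2.16 ± 0.167 and -2.44 ± 0.177 (edgeR adjusted p = 3.01e-09 and 1.27e-09). The log2 ratio of COL4A1 to COL4A2 per kilobase was -0.54 ± 0.363 in CD38+ cells, -0.34 ± 0.132 in control CD90+ cells and -0.06 ± 0.323 with overexpression, and its libraries overlapped between all groups (exact permutation p = 0.6, 0.3 and 0.2).

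The X-linked pair, whose intergenic sequence with its CCAAT motifs is printed above, behaved unlike the first. COL4A5 (ENSG00000188153.13, chrX:108439844-108697545, plus strand) was at 11.6, 12.4 and 11.3 CPM in CD38+ libraries, 14.2, 14.6 and 13.7 CPM in control CD90+ libraries and 11.1, 9.75 and 11.1 CPM with overexpression. It was the only type IV chain with a level above 2 CPM in CD38+ cells, and its changes were small, with log2 values of 0.27 ± 0.0857 (edgeR adjusted p = 0.0082) and -0.42 ± 0.0862 (adjusted p = 0.000337). COL4A6 (ENSG00000197565.15, chrX:108155607-108439497, minus strand) had 2 counts over the 3 CD38+ libraries and was at 2.298, 2.76 and 3.34 CPM in control CD90+ libraries and 1.21, 0.477 and 1.44 CPM with overexpression. The ratio of control CD90+ to CD38+ cells was 161 (exact Clopper-Pearson 95% interval 44.2 to 1330, counting error only). Its neighbour COL4A5 was 1.21-fold higher in the same comparison, and the difference between these folds was not tested. COL4A6 fell by 1.42 ± 0.323 on the log2 scale with overexpression (edgeR adjusted p = 0.000767).

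The third pair had few counts. COL4A4 (ENSG00000081052.12, chr2:227002711-227164453, minus strand) was at 0.266, 0.107 and 0.0751 CPM in CD38+ libraries, 1.16, 1.43 and 1.97 CPM in control CD90+ libraries and 0.594, 0.503 and 0.435 CPM with overexpression, with no overlap between groups. COL4A3 (ENSG00000169031.19, chr2:227164565-227314792, plus strand) was at 0.239, 0.508 and 0.1502 CPM, 0.412, 0.109 and 0.483 CPM and 0.155, 0.0795 and 0.0544 CPM, and its libraries overlapped between all groups. It was not called between control CD90+ and CD38+ cells (log2 0.16 ± 0.595, edgeR adjusted p = 0.817). Its call with overexpression (log2 -1.74 ± 0.714, edgeR adjusted p = 0.0351) was lost without control CD90+ replicate 1 or 3 or overexpression replicate 2 or 3, with adjusted p of 0.0957, 0.135, 0.0876 and 0.105, with limma voom (0.0736) and with a replicate block (0.0592).

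**Figure D4:**
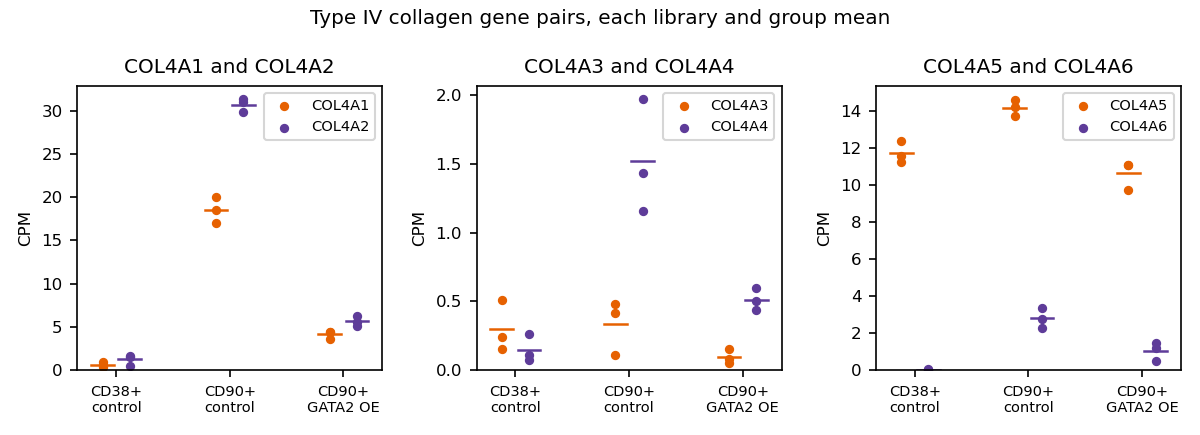
Level in CPM of the 3 head-to-head type IV pairs, 1 point per library and a bar at each group mean, with 126, 418 and 379 bases between the start sites of the pairs from left to right and a vertical scale of its own for each. COL4A5 stays between 9.75 and 14.6 CPM in all libraries while its neighbour COL4A6 goes from 0 to 3.34 CPM.

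Among the other collagens, 17 of 20 genes tested were called higher in control CD90+ than in CD38+ cells and 3 lower, and 18 were called lower with overexpression. Type VI collagen forms beaded filaments around cells and is a heterotrimer of COL6A1, COL6A2 and a longer chain. COL6A1 (ENSG00000142156.14, chr21:45981737-46005050, plus strand) was at 0.851, 1.39 and 0.851 CPM in CD38+ libraries, 32.7, 30.1 and 30.1 CPM in control CD90+ libraries and 8.19, 9.299 and 8.51 CPM with overexpression. COL6A2 (ENSG00000142173.14, chr21:46098097-46132849, plus strand), which lies 93046 bases downstream of COL6A1, was at 2.02, 2.19 and 1.702 CPM, 35.4, 36.9 and 33.6 CPM and 10.8, 10.97 and 11.2 CPM. COL6A3 (ENSG00000163359.15, chr2:237324003-237414375, minus strand), the long chain, was at 5.48, 5.94 and 6.23 CPM, 10.3, 9.197 and 9.32 CPM and 3.67, 3.76 and 3.23 CPM. All 3 fell with overexpression without overlap, COL6A1 by 1.84 ± 0.104, COL6A2 by 1.69 ± 0.0766 and COL6A3 by 1.43 ± 0.124 on the log2 scale (edgeR adjusted p = 4.43e-11, 2.13e-12 and 1.36e-08). Only COL6A3 ended below its CD38+ level, by 1.65-fold (edgeR adjusted p = 5.17e-05). COL6A1 and COL6A2 were 30.1-fold and 17.9-fold higher in control CD90+ than in CD38+ cells, against 1.63-fold for COL6A3.

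COL9A2, COL23A1 and COL7A1 were the members called lower in control CD90+ than in CD38+ cells, and they were called lower with overexpression too. COL9A2 (ENSG00000049089.14, chr1:40300487-40317813, minus strand), a chain of the type IX collagen that coats cartilage fibrils, was at 54.2, 57.1 and 55.2 CPM in CD38+ libraries, 23.8, 22.3 and 23.8 CPM in control CD90+ libraries and 17.2, 16.96 and 17.3 CPM with overexpression. The groups stepped down without overlap, with log2 fold changes of -1.25 ± 0.0483 (edgeR adjusted p = 1.82e-13) and -0.44 ± 0.0513 (adjusted p = 5.55e-07). COL23A1 (ENSG00000050767.16, chr5:178237618-178590555, minus strand), a transmembrane collagen, was at 23.2, 29.4 and 30.04 CPM, 10.3, 9.16 and 9.26 CPM and 5.79, 7.02 and 5.95 CPM, again without overlap. Its log2 fold changes were -1.53 ± 0.104 (edgeR adjusted p = 4.79e-10) and -0.61 ± 0.112 (adjusted p = 9.81e-05). COL7A1 (ENSG00000114270.17, chr3:48564073-48595267, minus strand), the anchoring fibril of skin, was at 6.7004, 5.96 and 7.26 CPM, 4.56, 3.94 and 6.101 CPM and 1.55, 2.33 and 1.14 CPM. Its control CD90+ and CD38+ libraries overlapped, and that call (log2 -0.45 ± 0.202, edgeR adjusted p = 0.0498) was lost under 10 of 15 alternatives, among them leaving out CD38+ replicate 1 or 3 or control CD90+ replicate 1 or 2 (adjusted p = 0.0884, 0.143, 0.132 and 0.205), a replicate block (0.0661) and library size alone (0.856). The fall of COL7A1 with overexpression was 1.53 ± 0.223 on the log2 scale (edgeR adjusted p = 8.64e-06).

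The other type IX chains differed from COL9A2 in direction between the control groups and fell with it under overexpression. COL9A3 (ENSG00000092758.17, chr20:62816244-62841159, plus strand) was at 1.303, 2.11 and 1.55 CPM in CD38+ libraries, 5.66, 5.75 and 6.02 CPM in control CD90+ libraries and 1.89, 2.73 and 2.12 CPM with overexpression, so it was higher where COL9A2 was lower (3.51-fold higher in control CD90+ than in CD38+ cells, edgeR adjusted p = 1.47e-07). With overexpression COL9A3 fell by 1.37 ± 0.184 and COL9A1 by 2.53 ± 0.525 on the log2 scale (edgeR adjusted p = 3.49e-06 and 0.000477). COL9A1 had no count in any CD38+ library, which allows up to 0.0261 CPM in that group, and was at 1.502 ± 0.495 CPM in control CD90+ cells, at least 56.8-fold higher with 3 counts over the group as the floor. Per kilobase, COL9A2 exceeded COL9A3 in every group, at 5.52 ± 0.197 against 1.2 ± 0.038999 CPM per kb in control CD90+ cells.

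COL18A1 was the abundant collagen that GATA2 overexpression did not move by a detectable amount. COL18A1 (ENSG00000182871.14, chr21:45405137-45513720, plus strand) is a basement membrane proteoglycan whose end fragment is endostatin, an inhibitor of vessel growth. It was at 14.5, 14.8 and 12.5 CPM in CD38+ libraries, 24.6, 25.9 and 25.8 CPM in control CD90+ libraries and 23.8, 26.5 and 25.7 CPM with overexpression. Both CD90+ groups lay above CD38+ cells (log2 0.87 ± 0.0717, edgeR adjusted p = 6.22e-09) and overlapped each other, with a log2 fold change of -0.0030 ± 0.06898 (edgeR adjusted p = 0.97). Scaled by library size alone it was -0.25 (adjusted p = 0.00336), when the median of all genes was itself -0.29. Exons of COL18A1 overlap those of SLC19A1 on the opposite strand, and the strand setting of the counting was not given in the sources used here, so reads of the pair may not be told apart. The same holds for COL9A3 with TCFL5, COL4A2 with COL4A2-AS2 and COL19A1 with LMBRD1.

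The remaining members at or above 5 CPM in a group were highest in control CD90+ cells and were called higher in both CD90+ groups than in CD38+ cells. COL8A2 (ENSG00000171812.12, chr1:36095236-36125220, minus strand), a short chain of the sheet under corneal endothelium, was at 0.0798, 0.0535 and 0.0751 CPM in CD38+ libraries, 7.27, 6.82 and 6.16 CPM in control CD90+ libraries and 1.42, 0.9802 and 1.25 CPM with overexpression. COL21A1 (ENSG00000124749.16, chr6:56056590-56394094, minus strand), a fibril-associated collagen of vessel walls, was at 0.824, 1.52 and 0.976 CPM, 8.54, 8.29 and 9.81 CPM and 1.86, 1.72 and 2.28 CPM. COL26A1 (ENSG00000160963.13, chr7:101362820-101559024, plus strand) was at 0.319, 0.454 and 0.626 CPM, 8.05, 8.05 and 7.57 CPM and 1.78, 2.01 and 1.96 CPM. None of the 3 had overlapping groups, and they fell with overexpression by 2.47, 2.18 and 2.04 on the log2 scale (edgeR adjusted p = 1.1e-09, 1.17e-08 and 6.48e-09).

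In all, 21 genes stayed below 5 CPM in every group, and 13 of these were tested. COL13A1, a transmembrane collagen of the nerve-muscle junction, had no count in any CD38+ library and was at 1.87, 1.796 and 1.73 CPM in control CD90+ libraries, at least 68.9-fold higher, and at 0.413, 0.212 and 0.326 CPM with overexpression. COL8A1 had 0 counts in CD38+ cells and 0.347 ± 0.0771 CPM in control CD90+ cells, at least 13.3-fold higher. COL12A1 had 3 counts in CD38+ cells, and the ratio of control CD90+ to CD38+ cells was 28.1 (exact Clopper-Pearson 95% interval 9.36 to 138). These genes were all low even where they were highest. COL14A1, COL15A1, COL16A1, COL17A1 and COL25A1 had means of 0.481 to 2.59 CPM in control CD90+ cells, were called higher there than in CD38+ cells and were called lower with overexpression. For COL17A1 the overexpression and control CD90+ libraries overlapped (edgeR adjusted p = 0.0334). The 8 genes that were not tested (COL5A3, COL6A5, COL6A6, COL10A1, COL11A2, COL19A1, COL20A1 and COL28A1) had a mean of at most 0.327 CPM in any group. Counted over all 43, the highest mean was in control CD90+ cells for 34, in CD38+ cells for 5 and with overexpression for 4.

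Genes that work on collagen were read from 5 lists, of which P4HA3, MIA2 and TLL1 did not pass the filter. The chain folding list, of enzymes and chaperones of the endoplasmic reticulum, was split in direction. Of its 17 genes tested, 7 were called higher and 8 lower in control CD90+ than in CD38+ cells, and 10 higher and 5 lower with overexpression (median log2 fold changes 0.01 and 0.23). For this and the following lists, the shares over all genes tested are 41.1% called higher and 39.3% lower in the first comparison and 38.0% higher and 39.6% lower in the second, and the folding list lay near the first pair. SERPINH1, the collagen chaperone HSP47, stood at 132 ± 3.17 CPM in CD38+, 166 ± 2.37 CPM in control CD90+ and 165 ± 2.104 CPM in overexpressing cells, a 1.26-fold difference between the control groups (edgeR adjusted p = 4.41e-09). P4HB, a subunit of prolyl 4-hydroxylase and a general protein disulfide isomerase, was at 1015 ± 22.3 CPM, 348 ± 7.43 CPM and 408 ± 2.35 CPM, 2.91-fold lower in control CD90+ than in CD38+ cells (edgeR adjusted p = 1.45e-18). COLGALT2, which adds galactose to hydroxylysine, was 11.3-fold lower there, and P3H2 and FKBP10 were 7.26-fold and 3.45-fold higher. With overexpression, when most chains fell, PLOD2, the lysyl hydroxylase of the chain ends, rose 2.201-fold to 52.3 ± 3.704 CPM and P3H4 rose 2.57-fold (edgeR adjusted p = 2.56e-11 and 1.06e-12). P4HA2 and PLOD1 fell 1.55-fold and 1.31-fold.

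The list for secretion, propeptide cleavage and cross-linking had 16 genes tested, with 8 called higher and 7 lower in control CD90+ than in CD38+ cells, and 5 higher and 8 lower with overexpression, against 41.1% and 39.3% and 38.0% and 39.6% of all genes, an even split like theirs in the first comparison. LOX, the lysyl oxidase that starts cross-links between collagen molecules, was at 4.65, 4.38 and 5.83 CPM in CD38+ libraries, 29.2, 29.3 and 30.1 CPM in control CD90+ libraries and 83.9, 86.4 and 83.4 CPM with overexpression. It was 5.94-fold higher in control CD90+ than in CD38+ cells and 2.86-fold higher again with overexpression (edgeR adjusted p = 3.66e-15 and 2.3e-13), where COL1A1 and COL3A1 were lower. LOXL1 rose 2.34-fold with overexpression, and LOXL2 fell 2.69-fold after being 5.696-fold higher in control CD90+ than in CD38+ cells. ADAMTS14, which cuts the propeptide of fibrillar chains, stood at 59.2 ± 1.96 CPM in CD38+ cells and 0.874 ± 0.04497 CPM in control CD90+ cells. BMP1, the protease of the other propeptide, was 4.18-fold lower in control CD90+ cells. ADAMTS2 and ADAMTS3, below 5 CPM in every group, went the other way, 20.1-fold and 1.51-fold higher in control CD90+ cells. With overexpression ADAMTS2 fell 4.12-fold and ADAMTS3 rose 1.36-fold, the latter with overlapping libraries (edgeR adjusted p = 0.0484). SEC24D, a coat protein of the vesicles that carry procollagen, fell 2.15-fold with overexpression.

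In the list of collagen degradation and its inhibitors, 3 of 12 genes were called higher and 8 lower in control CD90+ than in CD38+ cells, and 4 higher and 7 lower with overexpression, where 80.4% and 77.6% of all genes were called, nearly evenly in each direction. MMP2, a gelatinase, stood at 805 ± 27.99 CPM in CD38+, 38.4 ± 1.02 CPM in control CD90+ and 57.1 ± 0.133 CPM in overexpressing cells, the reverse of the order of the fibrillar sum. MMP14, the membrane protease that activates MMP2, was 6.25-fold lower in control CD90+ than in CD38+ cells. MMP9, the gelatinase of myeloid cells, was at 136 ± 6.48 CPM, 114 ± 2.83 CPM and 4.07 ± 0.07898 CPM and fell 28.1-fold with overexpression (edgeR adjusted p = 4.22e-20), and MMP1 fell 2.62-fold. TIMP3, an inhibitor held in the matrix, was 1.89-fold higher in control CD90+ than in CD38+ cells and 2.37-fold higher again with overexpression. The inhibitors TIMP1 and TIMP4 were 4.35-fold and 6.98-fold lower in control CD90+ than in CD38+ cells, and TIMP2 was not called. With overexpression TIMP1 rose 1.46-fold, while TIMP2 and TIMP4 fell 1.38-fold and 5.81-fold. CTSK, the collagen-degrading cathepsin of osteoclasts, rose 2.55-fold with overexpression.

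Receptors for collagen were called higher in 6 and lower in 5 of 11 cases in control CD90+ against CD38+ cells, and higher in 1 and lower in 9 with overexpression. The shares over all genes were 41.1% higher and 39.3% lower in the first, near the split of the receptors, and 38.0% and 39.6% in the second. OSCAR, a receptor of osteoclasts and myeloid cells that binds fibrillar collagen, was at 28.3 ± 3.62 CPM, 3.04 ± 0.281 CPM and 0.256 ± 0.0638 CPM, and LAIR1, an inhibitory receptor of leukocytes, was 4.63-fold lower in control CD90+ than in CD38+ cells and 1.18-fold higher with overexpression. ITGA11, the fibroblast integrin for fibrillar collagen, was 2.73-fold higher in control CD90+ cells and fell 3.92-fold with overexpression. The receptors DDR1 and DDR2, below 5 CPM in every group, had 0 and 2 counts over the CD38+ libraries. They stood at 1.39 ± 0.197 CPM and 2.7 ± 0.42 CPM in control CD90+ cells and fell 2.53-fold and 2.29-fold with overexpression.

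The partners of type IV collagen in the basement membrane had the directions of its chains in both comparisons. All 13 were called higher in control CD90+ than in CD38+ cells, and 12 were called lower with overexpression. The shares of all genes called in these directions were 41.1% and 39.6%. LAMA3 and LAMA4 were near or below the filter's level outside control CD90+ cells. They stood at 0 and 0.27 CPM in CD38+ cells and at 0.0351 and 0.123 CPM with overexpression, against 0.377 and 1.42 CPM in control CD90+ cells. Median log2 fold changes of the partners were 2.03 and -0.94, against 3.98 and -1.66 for the type IV genes. LAMB1, a laminin chain, stood at 3.4 ± 0.673 CPM in CD38+, 35.2 ± 0.5601 CPM in control CD90+ and 6.29 ± 0.488 CPM in overexpressing cells. NID1 and NID2, which tie laminin to type IV collagen, were at 9.71 ± 0.686 CPM, 77.8 ± 0.151 CPM and 40.5 ± 0.833 CPM and at 0.882 ± 0.221 CPM, 15.9 ± 0.442 CPM and 6.84 ± 0.834 CPM. LAMA1 fell 5.28-fold with overexpression (edgeR adjusted p = 3.67e-10), and the gene that was not called was LAMB2, at 62.8 ± 0.987 CPM and 64.7 ± 1.44 CPM in the CD90+ groups. Against CD38+ cells, LAMC1 was 1.45-fold lower in the overexpressing cells.

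**Figure D5:**
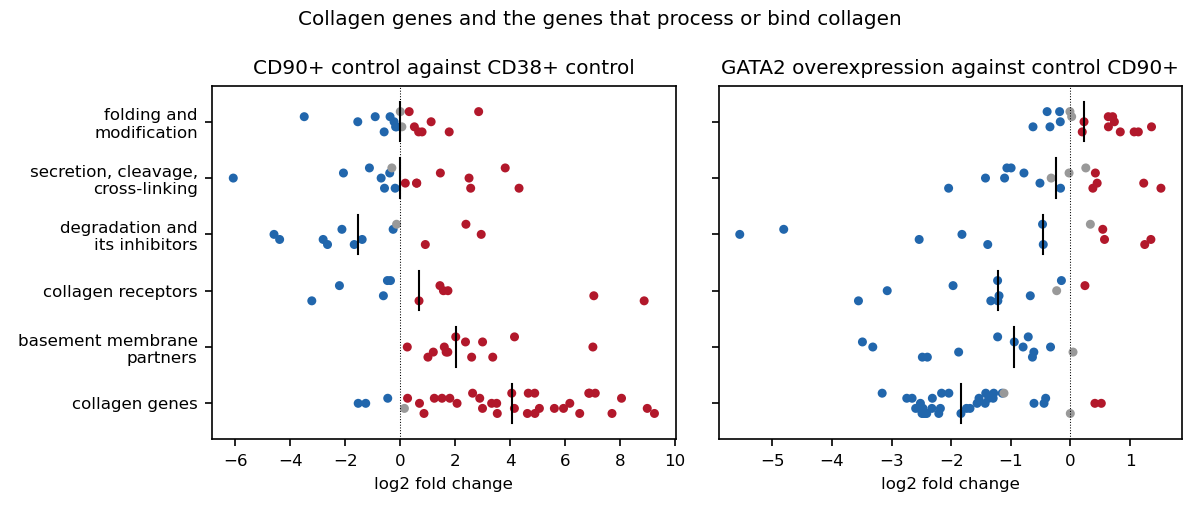
Log2 fold change of the collagen genes and of 5 lists of genes that act on or bind collagen, for control CD90+ against CD38+ cells (left) and overexpression against control CD90+ cells (right). Each point is a gene tested, red called higher, blue called lower and grey not called, and the black bar is the list's median. The medians of the collagen genes are 4.07 and -1.84, those of the folding list 0.01 and 0.23.

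Markers of cells that make collagen, and of others, moved with the groups, and their counts of calls stand against 80.4% and 77.6% of all genes called in the control and overexpression comparisons, nearly evenly in each direction. The 10 mesenchymal and fibroblast markers summed to 19.9 to 20.8 CPM in CD38+ libraries, 394 to 400.5 CPM in control CD90+ libraries and 129 to 150 CPM with overexpression. TCF21 and POSTN were at 0 in CD38+ cells, 9 of the 10 were called higher in control CD90+ cells and 9 lower with overexpression. LUM, which codes for a proteoglycan bound to collagen fibrils, had the most counts of them in control CD90+ cells, at 254 ± 1.24 CPM, against 6.003 ± 0.602 CPM in CD38+ cells and 84.1 ± 8.14 CPM with overexpression. The 7 cardiac muscle markers summed to 1.10 to 1.89 CPM, 91.6 to 94.8 CPM and 87.8 to 91.4 CPM, with 7 called higher in control CD90+ cells, and with overexpression 6 fell while MYL4 rose to 74.2 ± 2.72 CPM. The 8 epithelial and endoderm markers, of which KRT8 had the most counts in control CD90+ cells, summed to 358 to 373 CPM, 1065 to 1074 CPM and 703 to 710 CPM, with 8 higher in control CD90+ cells and 7 lower with overexpression. The 8 endothelial markers, with PECAM1 most counted in control CD90+ cells and EMCN at 0 in CD38+ cells, summed to 501 to 535 CPM, 468 to 476 CPM and 769 to 806 CPM, with 5 higher and 1 lower in control CD90+ cells and 5 higher and 2 lower with overexpression. The 8 macrophage markers, with CSF1R most counted in each group, summed to 888 to 943 CPM, 1667 to 1698 CPM and 221 to 244 CPM, with 5 higher and 3 lower in control CD90+ cells, and 8 of 8 were called lower with overexpression. The part of any of these cells in the collagen levels was not tested.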

How the data were processed

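RNA of 9 H1-derived libraries was sequenced as strand-specific read pairs, per the labels' protocols. The authors deposited raw counts of reads for each gene symbol, made with HISAT2 and featureCounts on hg38, per the submitters' processing notes. Their versions, the annotation and the strand setting were not given in the sources used here. The members, the collagen classes, the 5 partner lists and the marker lists were chosen with earlier results of these data known.

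Counts were tested with edgeR 4.0.16 (R 4.3.3) by the quasi-likelihood test, with TMM factors and filterByExpr (minimum count 10, minimum total 15), fitting 1 mean per group to all 9 libraries. P-values were adjusted by Benjamini-Hochberg over 16232 genes and called under 0.05. The SE is the size of the log2 fold change over the square root of F. With 0 counts in a group, bounds use 3 counts over the group, and with 1 to 3 counts exact intervals at 95% are given. Both cover counting error only, as the reads carry no molecular identifiers and are not independent. The procedure was tested on simulated data in which few genes differed, whereas most genes were called in these data. That test therefore does not show how the scaling behaves here. Lengths and positions are from GENCODE release 29, promoters from RefSeq.

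Values in each library are given for members with a mean of at least 5 CPM in a group, for type IV chains and for members that moved against their class. Other members were named after their values were seen. Partners named were SERPINH1, P4HB, LOX and PLOD2 and, per list, comparison and direction, up to 2 with the largest change among called genes without overlap and with at least 5 CPM in a group. Further partners were named after their values were seen. Alternatives were RLE factors, library size alone, upper-quartile factors, no filter, 1 CPM in 3 libraries, DESeq2 1.42.0, limma voom (limma 3.58.1), a replicate block, a fit restricted to the groups compared and leaving out each replicate.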

Additional observations from a re-analysis of the deposited data

How the results depend on the processing

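In 1120 recomputed values of the 25 collagen genes described by library, no called fold change reversed direction. In the 3 comparisons 364, 365 and 365 values kept their side of the threshold. Among differences that were not called, the sign turned under some alternatives for COL18A1 with overexpression (-0.25 to 0.05 on the log2 scale), COL4A3 between control CD90+ and CD38+ cells (-0.20 to 0.76) and COL4A5 between overexpression and CD38+ cells (-0.17 to 0.02). Of the values that changed side, 10 were the COL7A1 difference between control CD90+ and CD38+ cells, 6 the COL4A3 fall and 1 the COL24A1 rise with overexpression, which lost their calls. The 9 gained calls were COL18A1 with library size alone, and COL9A3 (6) and COL4A3 (2) between overexpression and CD38+ cells. Library size alone moved the median of all genes from 0.03 to 0.44 for control CD90+ against CD38+ cells and from -0.04 to -0.29 for overexpression, and the share of calls that were higher from 51.2% to 71.2% and from 49.0% to 35.5%. With it, 1 collagen gene in place of 2 was called higher with overexpression, and 1 in place of 2 was at least 2-fold lower in control CD90+ than in CD38+ cells, as with upper-quartile factors. The cause was not tested.

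Deviations of same-numbered libraries from their group means correlated at -0.0290 to 0.0256, so no shared effect of the replicate number was seen. Libraries of different number were not compared, so these values cannot settle whether same-numbered libraries were paired. With a replicate block 31 collagen genes were called higher and 2 lower in control CD90+ cells, 2 higher and 30 lower with overexpression, and 23 higher and 5 lower for overexpression against CD38+ cells.

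Class shares below are for CD38+, control CD90+ and overexpression libraries in that order. Without the most counted member of each class, fibrillar chains took 11.3%, 70.2% and 70.5%, other collagens 73.5%, 24.1% and 23.7%, and type IV chains 15.2%, 5.72% and 5.87% of collagen counts, so the direction between the CD90+ groups turned in all 3 classes. Per kilobase the fibrillar shares were 4.49%, 74.4% and 69.0%, those of type IV 4.27%, 3.15% and 3.13% and those of the other collagens 91.2%, 22.5% and 27.8%. With COL7A1, COL15A1 and COL18A1 counted as basement membrane, that class took 24.7%, 9.13% and 12.9%, and the other collagens 67.6%, 13.4% and 14.6%. With coding length, the log2 ratio of COL1A1 to COL1A2 was 0.19 in control CD90+ and 0.10 in overexpression libraries, and that of COL4A1 to COL4A2 -0.70 and -0.42. Without overexpression replicate 2 the COL4A1 to COL4A2 ratio changed sign to 0.12, and over the libraries left out it ranged from -0.19 to 0.12. These alternatives change which genes or lengths enter the sums. Depth limits the 8 genes that were not tested.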
